A study of Lemna gibba and Lemna japonica and Spirodela polyrhiza with 12 samples.

Results

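The small RNA loci compared here are those of the duckweeds Sp9509, a Spirodela polyrhiza accession, and Wa8730, a Wolffia australiana accession. Members were all loci on numbered chromosomes in the lists of these accessions, 43100 of the 79572 loci that the series lists for 4 accessions: 6188 in Sp9509 and 36912 in Wa8730. Whole fronds from sterile cultures in a medium with sucrose gave 3 small RNA libraries per accession, and no treatment, allele or transgene set the groups apart. Each list pools the 3 libraries, so no spread among replicates can be given, nothing was tested, and the intervals cover counting error only. Each species is represented by 1 accession, so species, accession and assembly cannot be told apart. Loci carry no gene names, and the label of whole frond could not be checked against marker genes.

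Spirodela fronds are broad and bear roots, whereas Wolffia plants are minute and rootless. Plants cut small RNAs with several Dicer-like enzymes. Those of 24 nt come mostly from transposons and other repeats and guide DNA methylation there. Those of 21 and 22 nt include microRNAs, which are cut from a hairpin in a single transcript and act on messenger RNAs, and secondary small interfering RNAs, which are cut from double-stranded copies of a transcript. Each locus is filed under the size that dominates its reads, or under no call where the list gives it no size.

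Sp9509 had 7130729 reads in its chromosomal loci and Wa8730 had 5614863. The 20 chromosomes, each measured up to the end of its last locus, spanned 138 Mb in Sp9509 and 351 Mb in Wa8730. The list of Sp9509 starts at 5 reads per locus and that of Wa8730 at 4, and 5 reads was therefore taken as the common minimum. It left 6188 loci in Sp9509 and 36549 in Wa8730. Hairpins held 70.1% of the reads in Sp9509 and 76.5% in Wa8730, which left 2130271 reads for all other loci of Sp9509 and 1321649 for those of Wa8730.

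Per Mb, the accessions went opposite ways by size class. Loci of 24 nt were sparse in Sp9509, at 7.52 per Mb, and dense in Wa8730, at 84.7 per Mb, a ratio of Sp9509 over Wa8730 of 0.0888 (95% interval 0.0834 to 0.0945). Loci of 21 nt, hairpins included, were denser in Sp9509, at 9.90 per Mb against 4.19 in Wa8730, a ratio of 2.36 (2.19 to 2.54). Loci of 22 nt were likewise denser in Sp9509, at 4.31 per Mb in Sp9509 and 2.44 in Wa8730 (ratio 1.76, 1.59 to 1.96). Loci with no call stood at 21.9 per Mb in Sp9509 and 11.5 in Wa8730. The number of 21 nt loci itself was close, 1368 in Sp9509 and 1473 in Wa8730, so the difference per Mb in this class came with the difference in span. Loci of 22 nt numbered 596 in Sp9509 and 859 in Wa8730, and no call loci 3033 and 4033. At this minimum Wa8730 thus had more loci in these classes, and Sp9509 was higher only per Mb.

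The 24 nt gap narrowed as the minimum went up, and those of the 21 nt, 22 nt and no call classes widened. At 10 reads or more, Sp9509 had 7.10 loci of 24 nt per Mb and Wa8730 had 69.2. At 100 reads or more, Sp9509 had 0.781 per Mb and Wa8730 had 1.98, a ratio of 0.394 (0.319 to 0.483). The 21 nt ratio was 2.64 at 10 reads and 2.88 at 100 reads, and the 22 nt ratio 2.48 and 2.66. Loci of 23 nt, few in each list, were at 1.09 per Mb in Sp9509 and 1.19 in Wa8730, a ratio of 0.916 whose interval of 0.755 to 1.11 holds equality. At 10 reads the 23 nt ratio was 1.65 (1.29 to 2.12).

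**Figure D1:**
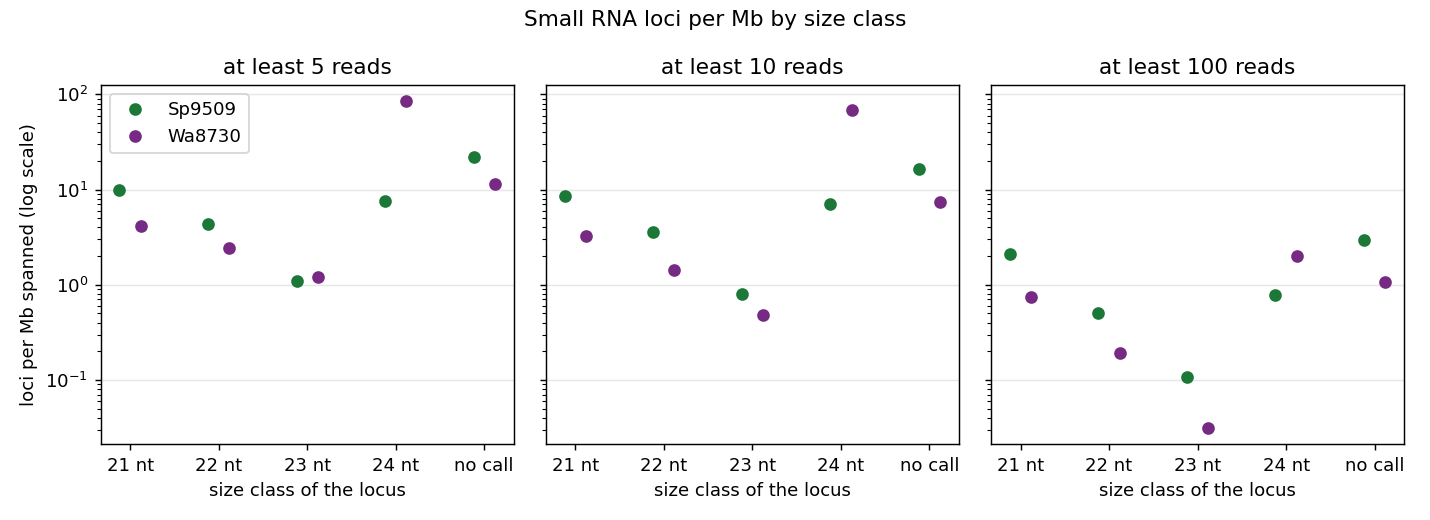
Loci per Mb spanned (log scale) by size class in Sp9509 (green, left of each pair) and Wa8730 (purple, right), for loci with at least 5, 10 and 100 reads, hairpins included. Wa8730 lies higher in the 24 nt class in each panel, by 84.7 to 7.52 loci per Mb at 5 reads, and Sp9509 lies higher in the 21 nt, 22 nt and no call classes.

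Scaling brought reads in loci to the same total. With Sp9509 reads multiplied by 0.787 and a minimum of 10 scaled reads, 905 loci of 24 nt remained in Sp9509 and 24327 in Wa8730, a ratio per Mb of 0.0945 (0.0884 to 0.101). Scaling on the reads outside hairpins, by a factor of 0.620, left 780 in Sp9509 and 24327 in Wa8730, at a ratio of 0.0815. On the same scale 929 loci of 21 nt remained in Sp9509 and 1149 in Wa8730, a ratio of 2.05 per Mb. No class changed the side of equality on which it lay under either scaling, apart from the 23 nt class.

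Chromosomes showed the same order one by one. The density of 24 nt loci ranged from 5.27 per Mb on chromosome 17 to 9.16 on chromosome 9 of Sp9509, and from 58.45 on chromosome 8 to 117 on chromosome 14 of Wa8730. All 20 chromosomes of Sp9509 lay below the sparsest of Wa8730. In the 21 nt class all 20 chromosomes of Sp9509 lay above the densest of Wa8730, at 5.40 loci per Mb. For 22 nt this held for 17 of 20 chromosomes of Sp9509 and for no call loci for 19 of 20. Chromosomes of one accession share their libraries and are not replicates.

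**Figure D2:**
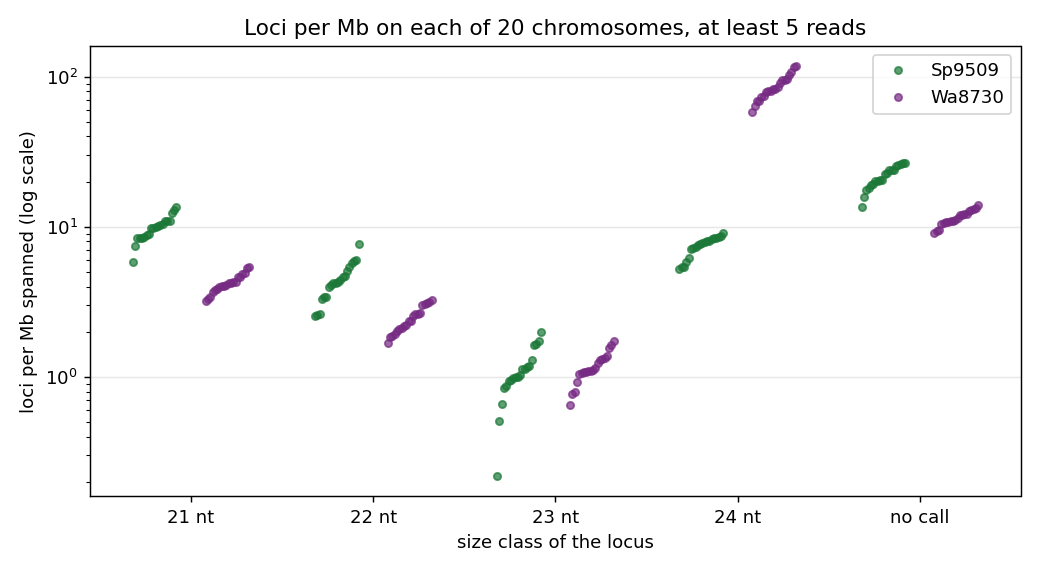
Loci per Mb spanned (log scale) for each of the 20 chromosomes of Sp9509 (green, left) and Wa8730 (purple, right), sorted by value within each size class, for loci with at least 5 reads. In the 24 nt class the chromosomes of Sp9509 reach at most 9.16 and those of Wa8730 start at 58.45, and in the 21 nt class the ranges are also apart, with Sp9509 higher.

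Loci of 24 nt held few reads each, and their reads were spread more evenly in Wa8730. The median 24 nt locus held 24 reads in Sp9509 and 15 in Wa8730. In Sp9509, 51174 reads lay in this class, 0.718% of all reads in loci, and in Wa8730 698776 reads, 12.4%. This share depended on what it was taken of: among reads outside hairpins it was 2.40% in Sp9509 and 52.9% in Wa8730, and with the 10 deepest loci of each list left out 1.61% in Sp9509 and 41.7% in Wa8730. Among loci with 100 reads or more it was 0.351% in Sp9509 and 2.53% in Wa8730, so Sp9509 was lower each time. Per Mb, 24 nt loci with at least 5 reads held 370.2 reads in Sp9509 and 1989 in Wa8730. The 10 deepest loci took 12.1% of the class's reads in Sp9509 and 1.34% in Wa8730. To gather 50% of the reads took 119 loci in Sp9509, 11.4% of the class, and 5327 loci in Wa8730, 17.9% of it. The listed length of 24 nt loci summed to 0.539% of the span in Sp9509 and 5.02% in Wa8730, while the reads per kb of that length were 68.7 in Sp9509 and 39.6 in Wa8730. In reads as counted, single 24 nt loci of Sp9509 were thus not shallower than those of Wa8730. These depths were not scaled for the larger read total of Sp9509.

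The deepest 24 nt locus of Sp9509 lay on chromosome 9 from 6049364 to 6049790 and held 1141 reads on the minus strand. The next, on chromosome 1 from 5821056 to 5821483, held 789 reads on the plus strand. In Wa8730 the deepest, on chromosome 2 from 24180759 to 24190372, held 2355 reads on neither strand and was also the longest at 9614 bp. The next, on chromosome 20 from 365601 to 366026, held 1008 reads on the minus strand. The longest of Sp9509 measured 5661 bp, on chromosome 19 from 3527 to 9187, with 720 reads on neither strand. Both leading loci of Sp9509 and the second of Wa8730 were therefore assigned to a single strand, unlike most loci of their class. Strands named here are those assigned to whole loci, and reads per strand were not used.

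A locus with reads from both strands, listed under neither, is typical of small RNAs cut from double-stranded RNA. Most 24 nt loci of both accessions were of this kind, 87.3% in Sp9509 (85.1 to 89.2) and 93.0% in Wa8730 (92.7 to 93.3). Within bands of like depth Wa8730 was higher throughout. With 5 to 9 reads the shares were 25.4% of 59 loci in Sp9509 (16.1 to 37.8) and 80.9% of 5438 loci in Wa8730 (79.9 to 82.0), although the median within this band was 6 reads in Sp9509 and 8 in Wa8730. With 20 to 49 reads they were 94.2% in Sp9509 and 98.99% in Wa8730. With 100 reads or more they were 88.0% of 108 loci in Sp9509 (80.5 to 92.8) and 98.9% of 697 in Wa8730 (97.8 to 99.4). By chromosome, the share ran from 80.6% to 97.0% in Sp9509 and from 90.5% to 94.4% in Wa8730, so the ranges overlap.

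The 21 nt class outside hairpins went the other way, except in its shallowest loci. Neither strand was assigned to 67.9% of its loci in Sp9509 (65.3 to 70.4) and to 53.2% in Wa8730 (50.6 to 55.8). At 5 to 9 reads the shares were 40.5% in Sp9509 (33.4 to 47.9) and 48.1% in Wa8730 (42.7 to 53.6), and at 20 to 49 reads 81.4% in Sp9509 and 52.8% in Wa8730. At 100 reads or more they were 60.2% in Sp9509 (53.7 to 66.3) and 54.1% in Wa8730 (47.3 to 60.7), and these intervals overlap. Loci of 22 nt were on neither strand in 59.9% of cases in Sp9509 and 72.2% in Wa8730. In the 22 nt class the intervals of the accessions overlap at 20 to 49 reads, at 50 to 99 reads and at 100 reads or more.

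In the 23 nt class 4.64% of loci in Sp9509 (2.26 to 9.26) and 65.6% in Wa8730 (60.9 to 69.9) were on neither strand. The share in Wa8730 rested on shallow loci: it was 83.6% at 10 to 19 reads, 21.4% of 14 loci at 20 to 49 reads and 0 of 20 loci above that. No call loci of Sp9509 lay mostly on 1 strand, with 18.8% on neither, against 44.8% on neither in Wa8730. Here too the gap was widest in shallow loci, with 16.0% in Sp9509 and 52.3% in Wa8730 at 5 to 9 reads. At 100 reads or more the shares were 8.35% in Sp9509 and 3.51% in Wa8730. Deep loci with no call thus lay mostly on 1 strand in either accession. The next locus along the chromosome was of 24 nt for 9.57% of no call loci in Sp9509 and 63.3% in Wa8730, where 24 nt loci made up 16.8% and 81.4% of all loci.

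**Figure D3:**
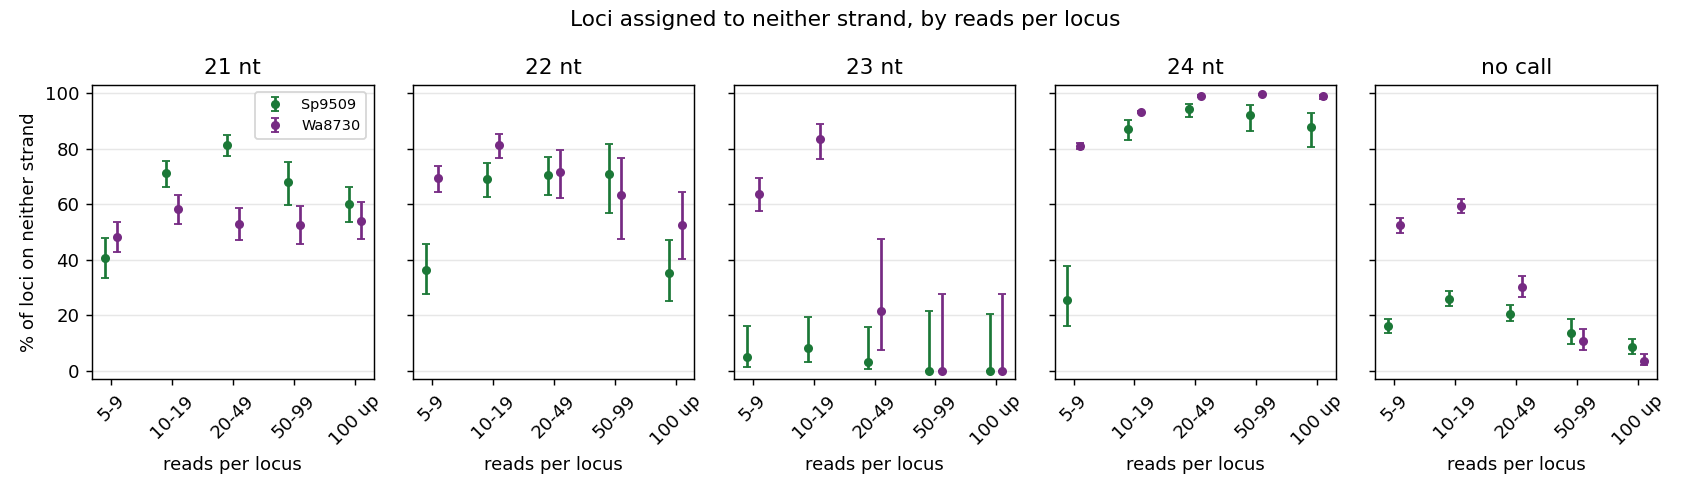
Share of loci outside hairpins assigned to neither strand (%, with 95% Wilson intervals) by reads per locus, in 1 panel per size class, for Sp9509 (green) and Wa8730 (purple). At 20 to 49 reads the 24 nt shares are 94.2% in Sp9509 and 98.99% in Wa8730 and the 21 nt shares 81.4% and 52.8%, and in the 23 nt and no call panels the accessions differ most below 20 reads.

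Length followed depth. Median lengths by class, outside hairpins, lay between 413 and 428 bp in both accessions. Loci over 600 bp made up 32.4% of the 24 nt class in Sp9509 and 25.3% in Wa8730. Within bands the order was the opposite: at 20 to 49 reads 28.1% were over 600 bp in Sp9509 (24.04 to 32.5) and 61.2% in Wa8730 (60.1 to 62.3), and at 50 to 99 reads 91.5% in Sp9509 and 99.8% in Wa8730. At 100 reads or more the median 24 nt locus measured 2142 bp in Sp9509 and 2323 bp in Wa8730. At like unscaled reads, 24 nt loci of Wa8730 were thus more often long. Over all 24 nt loci with at least 10 scaled reads, the share was 37.2% in Sp9509 and 30.9% in Wa8730. With scaling on reads outside hairpins it was 43.2% in Sp9509 and 30.9% in Wa8730. Bands of scaled reads were not made. In the 21 nt class the longer loci were those of Sp9509, with 71.6% over 600 bp at 50 to 99 reads (63.5 to 78.6) against 50 of 200 loci in Wa8730 (19.5% to 31.4%). At 100 reads or more the median 21 nt locus measured 1022 bp in Sp9509 and 547 bp in Wa8730.

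**Figure D4:**
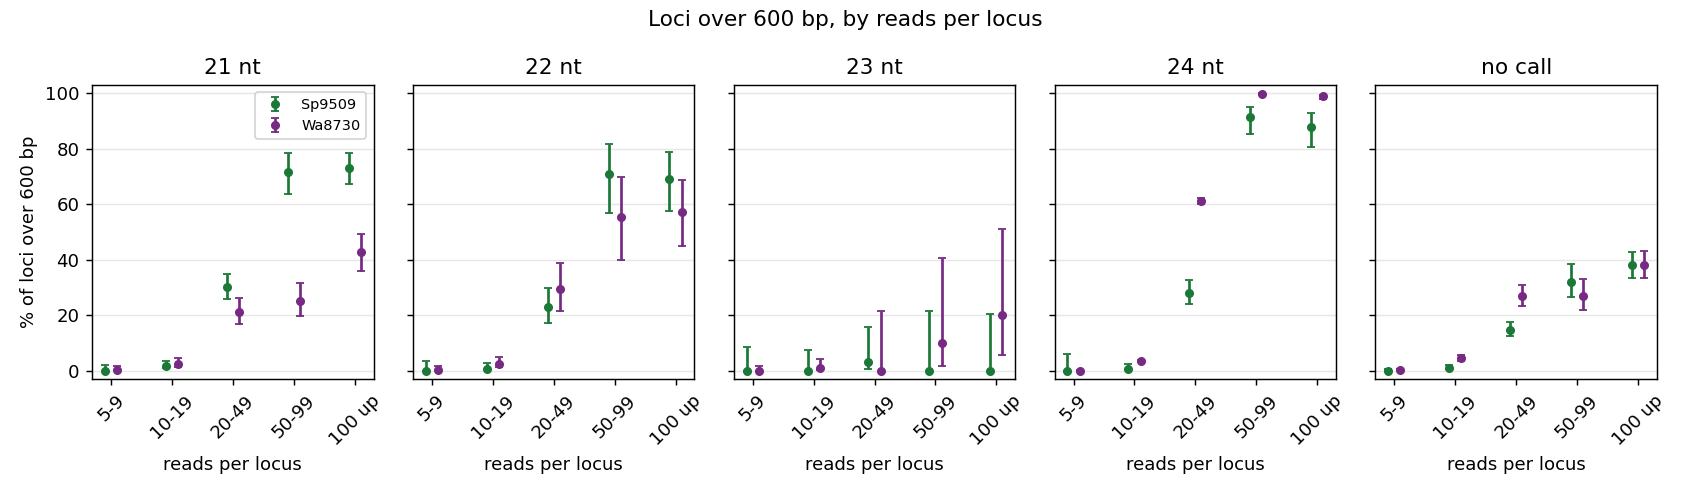
Share of loci outside hairpins that were over 600 bp (%, with 95% Wilson intervals) by reads per locus, in 1 panel per size class, for Sp9509 (green) and Wa8730 (purple). At 20 to 49 reads the 24 nt shares are 28.1% in Sp9509 and 61.2% in Wa8730, and at 50 to 99 reads 71.6% of 21 nt loci in Sp9509 and 50 of 200 in Wa8730 are this long.

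Neighbouring loci of 24 nt lay close together. The median gap to the next 24 nt locus was 28447 bp in Sp9509 and 1372 bp in Wa8730, yet 35.0% of the gaps in Sp9509 (32.1 to 38.0) and 44.2% in Wa8730 (43.6 to 44.7) were under 1 kb. In Sp9509 the 25th percentile of the gaps was 424.5 bp, near the 346 bp of Wa8730, so the sparse 24 nt loci of Sp9509 also formed groups. The next locus along the chromosome was again of 24 nt for 43.2% of the 24 nt loci of Sp9509, against a share of the class among all loci of 16.8%. In Wa8730 it was 85.6%, against 81.4%. The next locus after a 21 nt locus was again of 21 nt for 32.8% in Sp9509 and 21.9% in Wa8730, where the class made up 22.1% and 4.03% of loci.

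Along the chromosomes, the outermost 10% at each end held 17.9% of 24 nt loci in Sp9509 (15.7 to 20.3) and 26.1% in Wa8730 (25.6 to 26.6), where an even spread gives 20%. For 21 nt loci outside hairpins the order was reversed, at 24.6% in Sp9509 (22.3 to 27.03) and 20.4% in Wa8730 (18.3 to 22.6). Assembly ends were not used here, and spans end at the last locus.

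Outside hairpins, reads of the 21 and 22 nt classes were far more in Sp9509. The 22 nt loci held 650671 reads in Sp9509 and 97737 in Wa8730, and the 21 nt loci 692937 in Sp9509 and 174726 in Wa8730. Per Mb spanned, 22 nt loci had 4707 reads in Sp9509 and 278 in Wa8730, a ratio of 16.9, and 21 nt loci a ratio of 10.1. These ratios also carry the smaller span and the larger read total of Sp9509. As a share of reads outside hairpins, 22 nt loci held 30.5% in Sp9509 and 7.40% in Wa8730. The 21 nt loci held 32.5% in Sp9509 and 13.2% in Wa8730. Few loci made the read totals of these classes. In Sp9509, 3 loci of 21 nt and 4 of 22 nt held 50% of the reads of their classes, against 20 loci of 21 nt and 5 of 22 nt in Wa8730. The median 22 nt locus held 18 reads in Sp9509 and 11 in Wa8730, a much smaller difference than that of the sums.

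A segment of 142 kb on chromosome 12 of Sp9509, from 228666 to 370670, was singled out after its reads were seen. Only its loci with at least 2000 reads were counted, and those of 22 nt held 64.5% of the 22 nt reads outside hairpins. These were 5 loci with 25338 to 112634 reads each, 3 on the minus strand and 2 on the plus strand. The deepest lay from 320383 to 321021 on the minus strand with 112634 reads. The second lay from 369673 to 370670 on the plus strand with 94560 reads. The 21 nt loci of the segment included the one from 346017 to 346705, with 70574 reads on the minus strand. A hairpin of 205 bp, from 318253 to 318457, lay among them with 27717 reads. Without the 5 loci of 22 nt, 231080 reads of that class were left in Sp9509, still more than the 97737 of Wa8730.

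In Sp9509 the deepest 21 nt locus outside hairpins, on chromosome 6 from 4929309 to 4931137, held 224040 reads on neither strand, 32.3% of its class. In Wa8730 it lay on chromosome 5 from 5681203 to 5682315 with 22670 reads on the minus strand, 12.97% of its class. The second 21 nt locus of Wa8730, on chromosome 15 from 837757 to 838181, held 18559 reads on the minus strand. The 22 nt class of Wa8730 was led by loci of 19790 reads on chromosome 15, from 2912365 to 2913491, and of 12870 reads on chromosome 18, from 676687 to 677549. Each of the leading 22 nt loci was assigned to a single strand in both accessions.

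The 23 nt class had 29346 reads outside hairpins in Sp9509 and 10098 in Wa8730. In Sp9509 it was led by 9421 reads on chromosome 10, from 1910233 to 1910659, and 7247 reads on chromosome 8, from 4982522 to 4983104, both on the plus strand. The leaders of Wa8730 were 2682 reads on chromosome 5, from 328413 to 328965, and 980 reads on chromosome 11, from 11016288 to 11016714, also on the plus strand. No call loci held 706143 reads outside hairpins in Sp9509 and 338860 in Wa8730. In Sp9509 they were led by 123021 reads on chromosome 1, from 11544592 to 11546605, and 57383 reads on chromosome 8, from 4865313 to 4866100, both on the minus strand.

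Over the whole lists, microRNA hairpins were fewer in Sp9509 but denser, and deeper at the median. Sp9509 had 81 hairpins, 0.586 per Mb, and Wa8730 had 116, 0.330 per Mb (ratio 1.77, 1.32 to 2.38). The median hairpin held 7848 reads in Sp9509 and 92.5 in Wa8730. With 1000 reads or more there were 60 hairpins in Sp9509, 74.1% of them (63.6 to 82.4), and 39 in Wa8730, 33.6% (25.7 to 42.6). Under 100 reads were 11 hairpins of Sp9509 and 58 of Wa8730. Reads in hairpins came to 5000458 in Sp9509 and 4293214 in Wa8730, so the smaller median of Wa8730 went with a similar sum.

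Depth ranks show where the sum lay. The deepest hairpin of Sp9509, on chromosome 5 from 6909384 to 6909592, held 1506676 reads, 21.1% of all reads in chromosomal loci. That of Wa8730, on chromosome 11 from 16930771 to 16930982, held 1613220 reads, 28.7%. At rank 2 stood in Sp9509 a hairpin with a 22 nt mature strand, on chromosome 3 from 7343199 to 7343321, with 1194077 reads, and in Wa8730 a hairpin with a 21 nt mature strand, on chromosome 4 from 1138510 to 1138761, with 1356774 reads. The deepest hairpin with a 22 nt mature strand in Wa8730 held rank 3, on chromosome 3 from 19786737 to 19786862, with 467436 reads, 8.32% of reads in loci, against 16.7% for that of Sp9509. Rank 3 of Sp9509, on chromosome 12 from 793713 to 793840, held 238889 reads. The fourth ranks were close, with 177213 reads in Sp9509 on chromosome 13 from 2477625 to 2477833, and 182054 in Wa8730 on chromosome 2 from 17393612 to 17393766.

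From rank 5 to rank 72 the hairpin of Sp9509 held the larger share of its accession's reads at each of the 68 ranks. At ranks 1 to 4 and 73 to 81 the larger share was that of Wa8730. At rank 10 the reads were 103284 in Sp9509 and 40045 in Wa8730, at rank 30 they were 27717 in Sp9509 and 4190 in Wa8730, and at rank 50 they were 2326 in Sp9509 and 179 in Wa8730. The 10 deepest hairpins held 76.3% of hairpin reads in Sp9509 and 91.7% in Wa8730. To reach 90% took 23 hairpins in Sp9509 and 9 in Wa8730. Outside its 3 deepest, Sp9509 had 2060816 hairpin reads and Wa8730 had 855784. Ranks order hairpins within an accession and do not match a microRNA of one to a microRNA of the other.

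The hairpins at ranks 5 to 10 of Sp9509 held between 103284 and 141933 reads. That at rank 5, on chromosome 12 from 5677214 to 5677335, had 37094 reads of the mature strand and 78295 of the strand opposite, the star. It lay 3013 bp from the hairpin at rank 9, from 5674069 to 5674200, which had 81018 mature and 12001 star reads. The others were on chromosome 8 from 5407654 to 5407849, on chromosome 2 from 2961735 to 2961951, on chromosome 14 from 1608293 to 1608497 and on chromosome 11 from 4260669 to 4260787. Star reads there ran from 3, on chromosome 14, to 5281, on chromosome 11.

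Ranks 5 to 10 of Wa8730 held between 40045 and 61440 reads. That at rank 5, on chromosome 10 from 2614582 to 2614705, also had fewer reads of the strand listed as mature, 6446, than of the star, 39984. Its listed mature strand was 22 nt long and its star 20 nt, and the locus had no size call. The others lay on chromosome 16 from 6605583 to 6605718, on chromosome 12 from 9955068 to 9955223, on chromosome 13 from 2310827 to 2310951, on chromosome 14 from 5975147 to 5975318 and on chromosome 5 from 8486735 to 8486936. Their mature strands held 85.5% to 90.6% of the hairpin's reads. Star reads exceeded mature reads in 9 hairpins of Sp9509 and 5 of Wa8730.

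Summed over hairpins, mature strands held 80.8% of the reads in Sp9509 and 92.5% in Wa8730. Stars held 4.90% and 1.61%, and other reads from the hairpin 14.3% and 5.90%. These sums weigh the deepest hairpins most. By hairpin the order was the opposite, with a median mature share of 70.03% in Sp9509 and 57.14% in Wa8730. The median star share was 4% in Sp9509 and 6.07% in Wa8730. The stem-loops of Sp9509 were longer, with a median of 132 bp against 120 bp in Wa8730, and over 150 bp were 32.1% in Sp9509 and 13.8% in Wa8730. Between mature and star strand lay a median of 49 nt in Sp9509 and 37.5 nt in Wa8730. The mature strand was on the 3′ arm in 33 of 81 hairpins of Sp9509, 40.7% (30.7 to 51.6), and in 77 of 116 of Wa8730, 66.4% (57.4 to 74.3). Mature strands of 21 nt numbered 74 in Sp9509 and 106 in Wa8730.

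**Figure D5:**
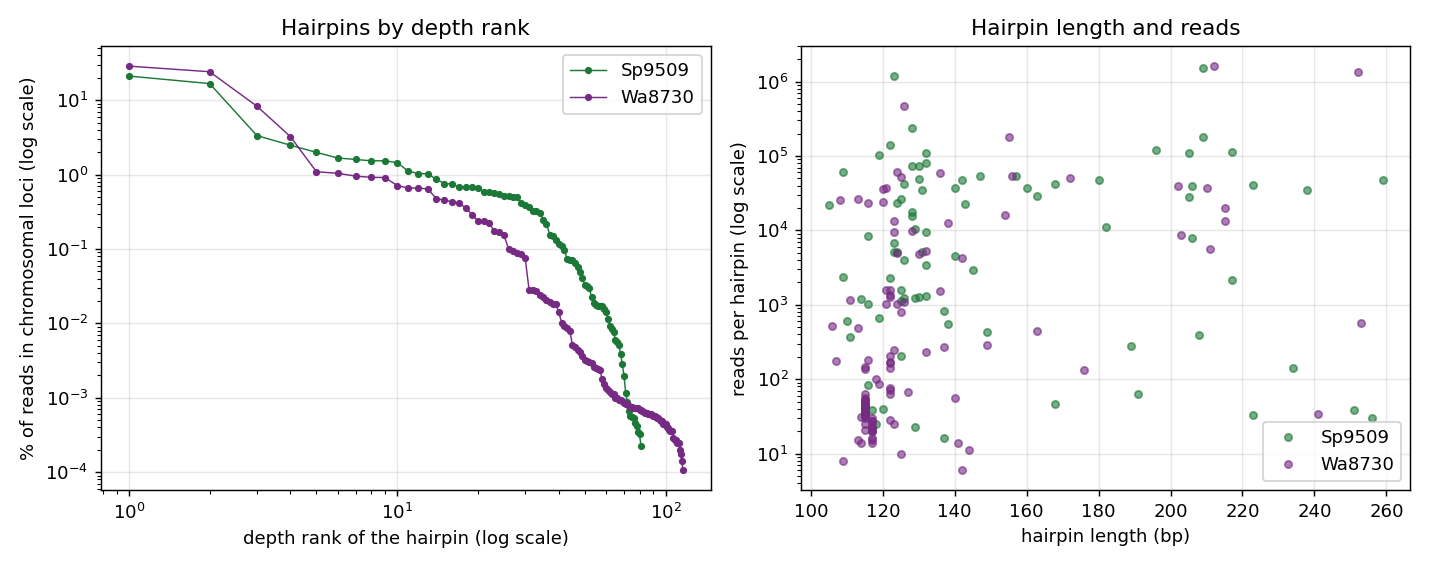
Left, share of reads in chromosomal loci (%, log scale) against depth rank of the hairpin (log scale) for the 81 hairpins of Sp9509 (green) and the 116 of Wa8730 (purple). Right, reads per hairpin (log scale) against hairpin length, where 43 hairpins of Wa8730 stack at 115 and 117 bp, with at most 146 reads each.

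Shallow hairpins of Wa8730 had lengths in common, which was noticed after the lengths were seen. Exactly 115 bp long were 31 of them, and 12 were exactly 117 bp long. No hairpin of Sp9509 measured 115 bp and 1 measured 117 bp, and the commonest length there, 132 bp, was shared by 5. The 43 hairpins lay on 15 chromosomes, held 14 to 146 reads each and 1707 in all, 0.0398% of the hairpin reads of Wa8730, and took ranks between 54 and 110. They made up 41 of its 58 hairpins with under 100 reads. In 39 of the 43 the mature strand began after the first 74 nt of the hairpin, on the 3′ arm.

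Orientation was shared as well. Of the 115 bp hairpins 29 were on the plus strand, and the 12 of 117 bp were all on the minus strand. Wa8730 had 11 pairs of neighbouring hairpins under 10 kb apart, each with the plus-strand hairpin first and the minus-strand hairpin after it, and 10 of them joined a 115 bp to a 117 bp hairpin. In 6 of these 11 pairs the gap was 2887 to 2918 bp, as on chromosome 13, an example picked with its values in view, between the hairpin from 3202605 to 3202719, with 46 reads, and that from 3205637 to 3205753, with 15. Sp9509 had 6 such neighbouring pairs, all on the same strand, with gaps of 960 to 4303 bp. They held from 551 to 1194077 reads per hairpin. An example, also picked with its values in view, lay on chromosome 11, where hairpins from 6090339 to 6090463 and from 6093433 to 6093556 held 26318 and 23243 reads.

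Without the 115 and 117 bp hairpins, 81 hairpins of Sp9509 stood against 73 of Wa8730, a ratio per Mb of 2.82 (2.03 to 3.92). Sp9509 then had more hairpins, not fewer. The commonest length among these 73 was 122 bp, shared by 11, so not every group of like length was left out. The median of the remaining hairpins of Wa8730 was 1088 reads, still below the 7848 of Sp9509. Median length was then 132 bp in Sp9509 and 124 bp in Wa8730, the share over 150 bp 32.1% in Sp9509 and 21.9% in Wa8730, and the median distance between strands 49 nt in Sp9509 and 41 nt in Wa8730. In each of these the accessions lay closer than over all hairpins. The share with the mature strand on the 3′ arm was then 40.7% in Sp9509 and 52.1% in Wa8730 (40.8 to 63.1), with overlapping intervals. The median mature share per hairpin was then 70.03% in Sp9509 and 72.78% in Wa8730. The median star share was 4% in Sp9509 and 1.70% in Wa8730, so both medians changed order. The sources used here do not say how reads that match many places were assigned, and its part in these values was not tested.

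Hairpins of Sp9509 lay a median of 87172 bp from the nearest 24 nt locus, and those of Wa8730 12136 bp, beside a mean spacing of 24 nt loci of 132928 bp in Sp9509 and 11804 bp in Wa8730. To the nearest 21 nt locus outside hairpins the median distance was 42573 bp in Sp9509 and 100292 bp in Wa8730. The mean spacing of 21 nt loci, hairpins included, was 101057 bp in Sp9509 and 238520 bp in Wa8730. Per chromosome, Sp9509 had 1 to 10 hairpins and Wa8730 had 1 to 14.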

How the data were processed

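Whole-frond RNA was size-selected and turned into NEXTflex libraries, per the labels' protocols. Both fastp 0.20.1 and deepTools appear in the submitters' processing notes with no role. Each list names ShortStack as its caller, and the file names give pooled replicates and the assembly, asm3v1 for Sp9509 and asm202106v1 for Wa8730. How the caller was set, and where it placed reads matching several sites, the sources used here do not give. The deposited values are read counts per locus, whole numbers with no normalization by the authors.

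Loci on numbered chromosomes with at least 5 reads were used, except that hairpins, of which none had fewer, are ranked over the whole lists. Mature and star lines were left out of totals. Shares have 95% Wilson intervals, ratios per Mb intervals from the exact binomial share. Reads carry no molecular identifiers in these lists and loci are not replicates, so intervals cover counting error only. Members, lists and most summaries were chosen with earlier results of these data known. Named loci are the 10 deepest hairpins, the 2 deepest other loci per class and the longest 24 nt locus of each accession, and the chromosomes with most and fewest 24 nt loci per Mb; others are said to be chosen after their values were seen. Alternatives were the whole lists, minimums of 10 and 100 reads, scaled reads (not rounded), chromosomes, hairpins or deepest loci left out, other spans and other lengths. No sequence is printed, since no genome of these assemblies was used here. Computations used Python 3.11.15, pandas 2.3.3, numpy 2.4.6, scipy 1.17.1 and matplotlib 3.10.9, and the summaries were tested on simulated lists.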

Additional observations from a re-analysis of the deposited data

Results flagged for a closer look

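Loci outside the numbered chromosomes were not part of the comparison but held reads: 66786 in Sp9509, of which 60645 lay in 80 chloroplast loci (chrC) and 6141 in 47 mitochondrial loci (chrM), and 34982 in Wa8730, of which 28648 lay in 53 chloroplast loci, 32 in 2 mitochondrial loci and 6302 in 195 loci on unplaced scaffolds. They made up 0.928% of the listed reads of Sp9509 and 0.619% of those of Wa8730.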

How the results depend on the processing

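Of 90 alternative values, 55 stayed within the counting interval of the value reported, 34 moved beyond it and 1 turned the sign of a difference whose interval did not hold 0. The 23 nt ratio, 0.916 with an interval that held equality, also passed to the other side of 1, at 1.65 with at least 10 reads, 3.47 with at least 100 reads and 1.32 and 1.08 under the scalings. For 24 nt loci per Mb the ratio of Sp9509 over Wa8730 was 0.102 with at least 10 reads, 0.394 with at least 100 reads, 0.0945 with reads scaled to equal totals and 0.0815 with reads scaled to equal totals outside hairpins. In the same order of settings the 21 nt ratio was 2.64, 2.88, 2.40 and 2.05 and the 22 nt ratio 2.48, 2.66, 2.12 and 1.66. Hairpins per Mb had a ratio of 3.07 with at least 100 reads and of 2.82 without those of 115 and 117 bp. The difference in neither-strand share of 24 nt loci, Sp9509 minus Wa8730, was -10.9 percentage points with at least 100 reads, -3.03 with scaled reads and -2.92 with reads scaled outside hairpins, against -5.72 as reported. The difference in the share of 24 nt loci over 600 bp was 7.12 percentage points as reported and -11.0 with at least 100 reads. It was 3.41 with at least 10 reads, 6.30 with scaled reads and 12.3 with reads scaled outside hairpins. The difference in the share of reads in 24 nt loci was -11.7 points as reported, -50.5 without hairpins, -40.05 without the 10 deepest loci and -2.18 with at least 100 reads. Each of these settings changes which loci enter the value, and the cause was not tested further. Leaving out the 115 and 117 bp hairpins, and chromosome 12 of Sp9509 for the 22 nt ratio (1.73), was chosen after seeing the data. No paired analysis was possible because all 3 libraries of an accession enter 1 list, which also kept single replicates from being left out. Loci under the lists' own minimums are not analysed here, so densities at 5 reads do not describe shallower loci.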

Other observations

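The deepest loci with no size call in Wa8730 lay near one another on chromosome 14 and were singled out after their values were seen. Only loci with at least 2000 reads were counted. Between 9385357 and 9452944 there were 5 of these, all on the minus strand, whose starts were 15827 to 15995 bp apart. The first 4 held 19120, 19269, 19280 and 19137 reads over 7191 to 8816 bp each, and the fifth 8044 reads over 3869 bp. Together they held 84850 reads, 25.04% of those of no call loci outside hairpins in Wa8730. The sources used here do not say how a read matching several of these loci was counted, and its part in their near-equal counts and in that share was not tested. The deepest no call locus of Sp9509, on chromosome 1 from 11544592 to 11546605, held 17.4% of its class alone.

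In windows of 1 Mb, numbers of 24 nt and no call loci per window had a Spearman correlation of 0.21 over 146 windows in Sp9509 and of 0.54 over 361 windows in Wa8730. The 21 and 22 nt pair had the opposite order, at 0.35 in Sp9509 and 0.11 in Wa8730. The other 8 pairs of classes ran from -0.06 to 0.24 in Sp9509 and from 0.13 to 0.23 in Wa8730. Both pairs named were picked with their values in view. The last window of each chromosome, cut short of 1 Mb, was kept, and its part in these correlations was not tested. Windows share libraries and chromosomes, and these values are descriptions only.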
